A study of Homo sapiens with 12 samples.

Results

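The clustered protocadherins are cell surface proteins of the cadherin family encoded side by side on chromosome 5. All protein-coding genes of the count table were taken whose symbol starts with PCDHA, PCDHB, PCDHGA, PCDHGB or PCDHGC followed by a number, or by C and a number. The rule found 53 of 60671 genes, comprising 15 alpha, 16 beta and 22 gamma members. They span 726846 bases of GRCh38, chr5:140786136-141512981, all on the plus strand. RNA was measured in BJ-5ta cells, an established human fibroblast line that carries an added telomerase gene. Wild-type cells in 10% serum (WT_10, libraries 1 to 3) were compared with ΔLEO1 cells in 10% serum (Leo1_10, libraries 4 to 6). The same cells were also measured after 10 days in 0.1% serum, as WT_01 (libraries 7 to 9) and Leo1_01 (libraries 10 to 12). LEO1 is a subunit of the PAF1 complex, which travels with RNA polymerase II, and exons 1 and 2 were targeted with CRISPR/Cas9. All ΔLEO1 libraries came from a single cell clone, so the loss of LEO1 and other features of that clone cannot be told apart. The labels do not say whether the 3 libraries of a group came from separate cultures, and p-values then measure only the spread between these libraries.

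Clustered protocadherins are best known from neurons. There, each cell transcribes a few members from alternative promoters, and the proteins on neighbouring cells bind like to like, which lets neurites of the same cell recognize each other. A large variable first exon encodes the extracellular and transmembrane part of each alpha and gamma protein, and is spliced to constant exons that encode a shared cytoplasmic end. Beta members are single-exon genes without such a shared end. CTCF and cohesin bind conserved sequences near the variable exons, and DNA methylation and heterochromatin silence members that are not chosen. The C-type members (PCDHAC1, PCDHAC2, PCDHGC3, PCDHGC4 and PCDHGC5) lie at the end of the alpha and gamma groups and are chosen less randomly.

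The constant exons matter for reading the counts. In the GENCODE annotation the 15 alpha genes share 3 exons of 59, 89 and 2718 bases, and the 22 gamma genes share 3 exons of 59, 89 and 2033 bases, the last at chr5:141510947-141512979. Reads inside these exons cannot be given to a member, and how they were counted is not given in the sources used here. PCDHGA9 had 0 counts in library 1, so reads in the gamma constant exons were not added to every gamma gene. PCDHGB4 shared 64.4% of its exon bases with other genes, the largest part among the members, since it also overlaps PCDHGA8. Variable parts can also be alike. Of all stretches of 58 bases, the read length, 41.9% of those in PCDHB8 occurred in another gene, mostly PCDHB13, as did 22.1% of those in PCDHB13. The values were 19.7% for PCDHGB4 and 18.1% for PCDHGB5, which resemble each other, and the counts of such pairs are less certain than those of PCDHGA7 or PCDHGC3, for which it was 0.0%.

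The promoters show what the members of a subcluster have in common besides their coding sequence. RefSeq promoter windows on GRCh38.p14, with 250 bases before the transcription start and 50 after it, were found for 47 of the 53 members. PCDHA3, PCDHA13, PCDHB6, PCDHB11, PCDHGA12 and PCDHGC5 had no entry. Within each subcluster, the run of 7 letters found in most members was searched on both strands. Of runs tied for this, the one rarest among all promoters was taken. The runs were thus chosen from these same promoters, and their shares are no test of enrichment. TGTCGCT was found in 10 of 13 alpha promoters and 1.76% of all 35116 promoters of the same length. TGGCGCT was found in 13 of 14 beta promoters and 4.08% of all, and CGCTGTT in 13 of 20 gamma promoters and 2.26% of all. These runs overlap, as each of them holds CGCT, which alone was found in 70.0% of all promoters. In the sequences shown here, the matches are in capitals. All lie on the plus strand and are written 5′ to 3′, and they show members that were abundant or that changed, with each of the 3 runs among them.
PCDHA7, chr5:140834165-140834211, alpha, 12 counts at most: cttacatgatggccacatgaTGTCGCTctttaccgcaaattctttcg
PCDHB16, chr5:141182303-141182349, beta, the most abundant of them: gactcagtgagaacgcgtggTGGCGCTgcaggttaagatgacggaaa
PCDHB2, chr5:141094537-141094583, beta: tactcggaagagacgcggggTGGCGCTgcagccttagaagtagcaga
PCDHB5, chr5:141135172-141135218, beta, lower in ΔLEO1 cells: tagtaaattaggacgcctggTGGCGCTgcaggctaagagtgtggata
PCDHGA4, chr5:141354953-141355002, gamma, higher in ΔLEO1 cells: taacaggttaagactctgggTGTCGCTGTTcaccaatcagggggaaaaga
PCDHGA8, chr5:141392564-141392610, gamma, higher in ΔLEO1 cells: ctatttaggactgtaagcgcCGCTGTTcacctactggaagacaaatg
PCDHGA10, chr5:141412927-141412973, gamma, lower in ΔLEO1 cells: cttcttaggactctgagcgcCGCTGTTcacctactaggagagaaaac
PCDHGA7, chr5:141382645-141382691, gamma, abundant: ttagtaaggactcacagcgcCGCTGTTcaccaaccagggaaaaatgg
PCDHGC3, chr5:141475797-141475843, gamma C-type, abundant: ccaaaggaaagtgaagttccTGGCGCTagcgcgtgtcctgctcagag
In PCDHGA4 the letters of TGTCGCT and CGCTGTT ran into each other. PCDHGB4 and PCDHGB5 held both the CGCTGTT of the gamma members and the TGGCGCT of the beta members. Their sequences before the start are shown because the pair were alike there and yet differed in expression.
PCDHGB4, chr5:141387448-141387697, not called on the ERCC scale: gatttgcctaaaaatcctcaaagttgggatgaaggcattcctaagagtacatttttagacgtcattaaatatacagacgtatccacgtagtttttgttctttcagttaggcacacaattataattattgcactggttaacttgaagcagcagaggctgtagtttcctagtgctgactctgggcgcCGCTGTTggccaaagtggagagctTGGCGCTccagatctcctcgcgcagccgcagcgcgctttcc
PCDHGB5, chr5:141397697-141397946, higher in ΔLEO1 cells: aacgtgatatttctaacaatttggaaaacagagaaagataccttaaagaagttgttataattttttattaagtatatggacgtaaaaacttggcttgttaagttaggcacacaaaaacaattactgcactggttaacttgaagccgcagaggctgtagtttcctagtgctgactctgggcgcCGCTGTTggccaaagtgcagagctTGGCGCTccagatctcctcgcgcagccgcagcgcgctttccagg
Over the 71 bases around both matches the pair differed at 1 position. Over 247 bases lined up on the match without gaps they differed at 73. The windows of PCDHGB6 and PCDHGB7 held none of the 3 runs of 7 letters. Nor did those of PCDHGB1, PCDHGB3, PCDHGA11, PCDHGC4, PCDHA9, PCDHAC1, PCDHAC2 and PCDHB1.

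Gene counts per library ran from 26240632 to 45315560. LEO1 had 682 to 1001 counts in wild-type libraries and 23 to 55 in ΔLEO1 libraries. ERCC transcripts, synthetic RNAs added to each sample, made up 0.625% to 3.24% of the counts and set the scale of the tests (the ERCC scale). Levels are given as counts-per-million (CPM) of all gene counts, which does not use the ERCC transcripts. On the ERCC scale, the median log2 change of all 13236 genes tested was 0.35 and 0.27 for ΔLEO1 against wild type in 10% and 0.1% serum, and −0.97 and −1.05 for 0.1% against 10% serum in wild-type and ΔLEO1 cells. Scaled on the genes (TMM), these medians were 0.00, 0.02, 0.00 and 0.01, so both scales are given. The highest-numbered library of each group (3, 6, 9 and 12) stood apart from the other two. The chi-square per gene was 66.2 to 144 for pairs with such a library and 3.04 to 12.1 for the others. Counts of called members are therefore also given without libraries 3, 6, 9 and 12. In bulk RNA, fewer cells that use a member and less of its RNA per cell cannot be told apart.

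The fibroblasts used beta and gamma members and hardly any alpha members. Of 162584 counts in the cluster, 107934 fell on gamma, 54575 on beta and 75 on alpha genes. A library held 10859 to 19362 counts in the cluster. No alpha member passed 0.358 CPM in any library, and 6 of the 15 had no count at all, among them the C-types PCDHAC1 and PCDHAC2. In a library of 26240632 gene counts, 0 counts allow up to 0.114 CPM by counting error alone. PCDHA7 was the highest alpha member, with 5, 3 and 6 counts in wild-type libraries 1 to 3, 0 in ΔLEO1 libraries 4 to 6, 2, 3 and 12 in libraries 7 to 9 and 1, 0 and 1 in libraries 10 to 12. PCDHA4 had 0 to 4 counts and PCDHA10 0 to 2 counts per library, too few to compare groups. Of the 53 members, 30 passed the filter of more than 1 CPM in 3 libraries, 13 beta and 17 gamma, and 22 had more than 1 CPM in every library. PCDHB1 had no count, and the remaining 7 beta and gamma members that did not pass were PCDHB3, PCDHB4, PCDHGA3, PCDHGA9, PCDHGA11, PCDHGC4 and PCDHGC5.

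Among the beta members, PCDHB16 was the most abundant, at 22.5, 22.6 and 17.5 CPM in WT_10, 39.4, 40.5 and 38.7 in Leo1_10, 29.7, 26.6 and 21.1 in WT_01 and 47.0, 44.9 and 49.1 in Leo1_01. PCDHB14 followed with 12.8 to 29.4 CPM and PCDHB2 with 6.86 to 31.9 CPM over all libraries. PCDHB5 and PCDHB6 were the lowest beta members tested, at 0.94 and 1.32 CPM on average. Among the gamma members the C-type PCDHGC3, which is known to bind axin, led with 67.0, 66.5 and 63.3 CPM in WT_10 and 177, 160 and 94.3 in WT_01. PCDHGB4 (43.3 to 73.5 CPM) and PCDHGA7 (15.9 to 63.9 CPM) came next. PCDHGC4, known in mice for neuron survival, stayed at 3 to 16 counts and PCDHGC5 at 8 to 29 counts per library. Per kilobase of exon that no other gene shares, PCDHGB4 had 23.4 CPM and PCDHGC3 20.2 CPM in WT_10, so the order of these members in that group depends on the length used.

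**Figure D1:**
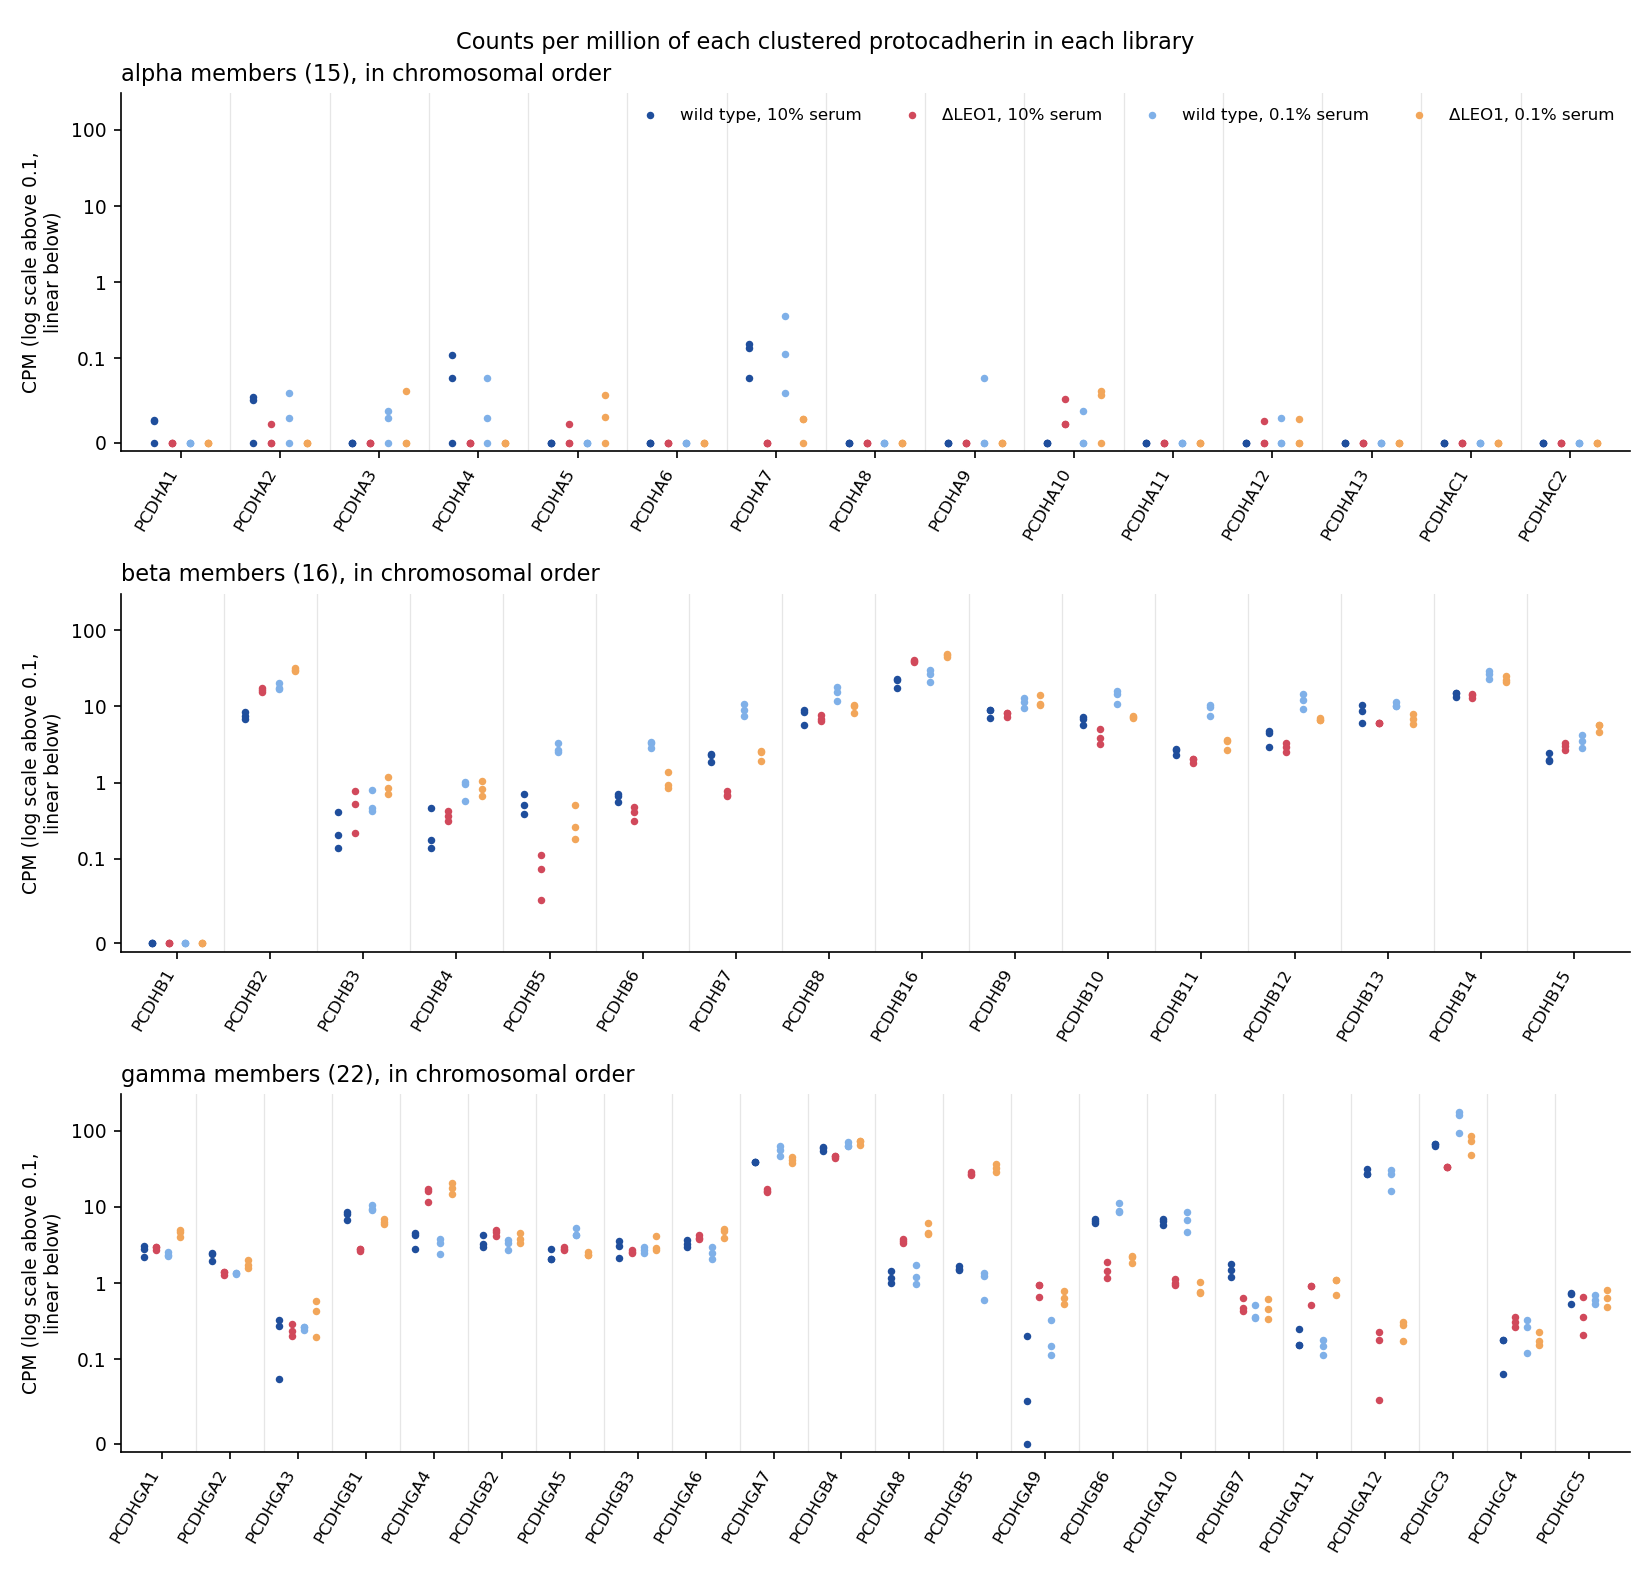
CPM of all 53 members in chromosomal order, 1 point per library, on a log axis that is linear under 0.1. The 3 libraries of a group lie close together for most members, alpha members stay near 0, and PCDHGB5 and PCDHGA12 show the widest gaps between ΔLEO1 and wild-type libraries.

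In 10% serum, ΔLEO1 cells differed from wild-type cells in which gamma members they expressed. On the ERCC scale 3 of 30 members tested were upregulated (3.81% of all genes tested) and 4 were downregulated (4.2% of all genes tested). All 3 upregulated members were gamma genes (PCDHGA4, PCDHGA8 and PCDHGB5), and so were 3 of the 4 downregulated ones (PCDHGB6, PCDHGA10 and PCDHGA12). In 0.1% serum the same 7 members were called in the same directions, 7 of 7 of the first list and 7 of 8 of the second. The counts there were 3 higher (3.49% of all genes tested) and 5 lower (3.41% of all genes tested), with PCDHB7 as the addition. With TMM on the genes, 6 members were higher (17.9% of all genes) and 12 lower (21.4%) in 10% serum, and 8 were higher (15.1%) and 15 lower (17.3%) in 0.1% serum, and they included all members called on the ERCC scale. Without libraries 3, 6, 9 and 12 the ERCC scale gave 4 higher and 7 lower in 10% serum, beside 724 and 825 of all 13236 genes tested. In 0.1% serum it gave 3 higher and 13 lower, beside 338 and 1645 of all genes. The median log2 change of the 30 members was −0.05 in each serum, below that of all genes.

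PCDHGB5 showed the largest increase. It had 54, 60 and 66 counts in WT_10 (1.48, 1.53 and 1.68 CPM) and 1098, 1237 and 1173 counts in Leo1_10 (28.3, 27.3 and 26.4 CPM). The groups were far apart, with a ratio of mean CPM of 17.5. In 0.1% serum it had 46, 32 and 20 counts in WT_01 and 1122, 945 and 1302 in Leo1_01, a ratio of 30.9. The log2 change on the ERCC scale was 4.50 ± 0.58 (SE; adjusted p = 8.14e-13) in 10% serum and 5.23 ± 0.60 (adjusted p = 1.06e-15) in 0.1% serum. PCDHGB5 went from rank 15 of the 22 gamma members in WT_10 to rank 3 in Leo1_10. PCDHGB4, whose promoter resembles that of PCDHGB5, had a log2 change of −0.02 ± 0.48 (adjusted p = 0.987) on the ERCC scale and −0.35 (adjusted p = 0.00870) with TMM in 10% serum.

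PCDHGA4 had 4.50, 4.29 and 2.83 CPM in WT_10 against 17.2, 16.1 and 11.8 in Leo1_10, and 3.83, 3.39 and 2.42 in WT_01 against 17.7, 14.6 and 20.4 in Leo1_01. Its libraries did not overlap in either serum. The log2 change was 2.27 ± 0.53 (adjusted p = 4.98e-04) in 10% serum and 2.76 ± 0.54 (adjusted p = 1.62e-05) in 0.1% serum. With the lowest-numbered pair of libraries in each group summed, the call in 10% serum was lost (adjusted p = 0.0663). PCDHGA8, the gene between PCDHGB4 and PCDHGB5, had 37, 45 and 57 counts in WT_10 and 146, 152 and 158 in Leo1_10, and 41, 45 and 33 in WT_01 against 157, 145 and 216 in Leo1_01. Its log2 change was 1.96 ± 0.56 (adjusted p = 0.00804) in 10% serum, lost without library 2 (adjusted p = 0.0705) or library 4 (adjusted p = 0.0822). It was 2.24 ± 0.57 (adjusted p = 0.00189) in 0.1% serum, lost without library 9 (adjusted p = 0.0618). PCDHGA9 and PCDHGA11, chosen after their values were seen, did not pass the filter. PCDHGA9 had 0, 8 and 2 counts in WT_10 and 37, 30 and 42 in Leo1_10, and PCDHGA11 had 9, 6 and 6 against 35, 23 and 40.

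PCDHGA12 was nearly absent from ΔLEO1 cells, and passed the filter through its wild-type libraries alone. It had 980, 1052 and 1217 counts in WT_10 (26.9, 26.9 and 31.0 CPM) and 2, 8 and 10 counts in Leo1_10, and 1033, 712 and 547 in WT_01 against 6, 10 and 10 in Leo1_01. No ΔLEO1 library came near a wild-type library, and mean CPM was 187-fold lower in 10% serum and 97.2-fold lower in 0.1% serum. The log2 change was −7.24 ± 0.69 (adjusted p = 1.33e-22) and −6.48 ± 0.67 (adjusted p = 2.11e-19). It was the fourth most used gamma member in both wild-type groups and ranked 22 and 21 of 22 in Leo1_10 and Leo1_01.

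PCDHGA10 had 236, 273 and 225 counts in WT_10 and 37, 45 and 50 in Leo1_10, and 287, 177 and 157 in WT_01 against 36, 25 and 26 in Leo1_01. The groups did not overlap, with log2 changes of −2.34 ± 0.56 (adjusted p = 7.66e-04) and −2.79 ± 0.58 (adjusted p = 5.41e-05) in 10% and 0.1% serum. Both calls were lost with the lowest-numbered pair of libraries in each group summed (adjusted p = 0.119 and 0.0599). ΔLEO1 libraries had 0.954 to 1.13 CPM in 10% serum and 0.737 to 1.04 CPM in 0.1% serum. PCDHGA10 thus passed the filter through the wild-type libraries, where it was high. PCDHGB6 had 252, 240 and 258 counts in WT_10 and 55, 52 and 85 in Leo1_10. In 0.1% serum the counts were 301, 223 and 375 against 64, 73 and 77, again without overlap. Its log2 change was −1.82 ± 0.55 (adjusted p = 0.0143) in 10% serum and −1.91 ± 0.55 (adjusted p = 0.00924) in 0.1% serum. The call in 10% serum was lost without library 1, 2, 5 or 6 (adjusted p 0.0632 to 0.186), and that in 0.1% serum without library 8 (adjusted p = 0.0524) or 10 (adjusted p = 0.105). By position, the upregulated PCDHGA8 and PCDHGB5 are followed by PCDHGA9, then by the downregulated PCDHGB6 and PCDHGA10, PCDHGB7, PCDHGA11 and the downregulated PCDHGA12.

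**Figure D2:**
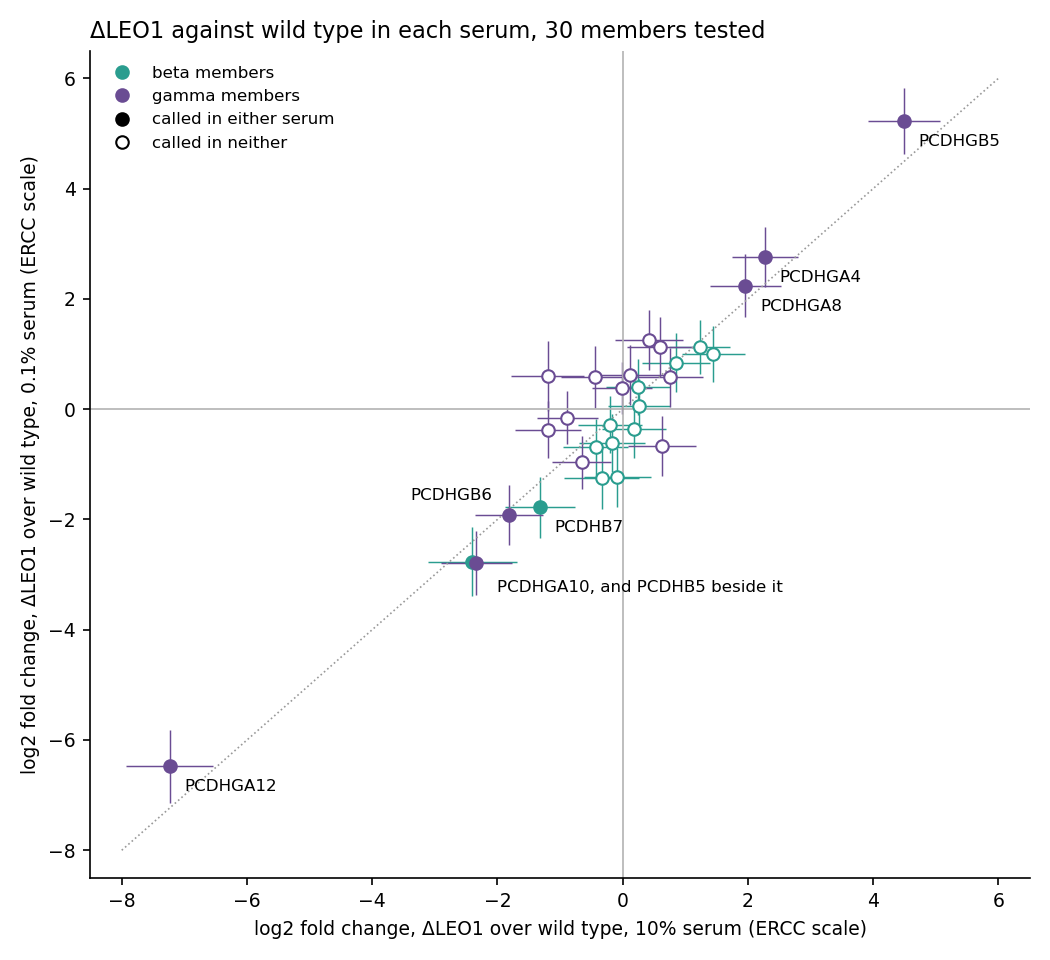
Log2 fold change of ΔLEO1 over wild type on the ERCC scale in 10% serum (x) and 0.1% serum (y) for the 30 members tested, with bars of 1 SE and a dotted line of equal change. PCDHGB5 lies at 4.50 and 5.23 and PCDHGA12 at −7.24 and −6.48, while the members called in neither serum lie between −1.25 and 1.45 on both axes.

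The comparisons in the 2 sera shared no library, though they shared the clone and the parental line. Of the 30 members tested, 25 had the same sign in both, and Pearson's r across members was 0.94, a description across genes that are not independent. The 5 with unlike signs were PCDHB8, PCDHGA2, PCDHGA5, PCDHGB4 and PCDHGB7, none called in either serum on the ERCC scale.

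Of the 13 beta members tested, 1 was called in 10% serum and 2 in 0.1% serum on the ERCC scale, all lower. Of all genes tested, 4.2% and 3.41% were lower there. With TMM, 3 were higher (17.9% of all genes) and 3 lower (21.4%) in 10% serum. In 0.1% serum 3 were higher (15.1%) and 8 lower (17.3%) with TMM. PCDHB5 had 26, 20 and 15 counts in WT_10 and 2, 4 and 5 in Leo1_10, and 110, 70 and 85 in WT_01 against 9, 6 and 18 in Leo1_01. It did not overlap between genotypes, and its log2 change was −2.40 ± 0.71 (adjusted p = 0.0124) in 10% serum and −2.77 ± 0.63 (adjusted p = 2.98e-04) in 0.1% serum. The call in 10% serum was lost without library 1, 4, 5 or 6 (adjusted p 0.0567 to 0.157). PCDHB5 exceeded 1 CPM only in WT_01 libraries, and passed the filter through that group alone. PCDHB7 had 10.7, 8.92 and 7.47 CPM in WT_01 and 2.56, 2.61 and 1.90 CPM in Leo1_01, without overlap. The log2 change was −1.78 ± 0.55 (adjusted p = 0.0207), lost without library 7 (adjusted p = 0.136), 8 (adjusted p = 0.125) or 10 (adjusted p = 0.0976). In 10% serum PCDHB7 had a log2 change of −1.32 ± 0.56 (adjusted p = 0.165).

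Relative to other genes, PCDHB2, PCDHB15 and PCDHB16 were higher in ΔLEO1 cells in both sera with TMM on the genes. PCDHB2 had 7.40, 8.42 and 6.86 CPM in WT_10 and 17.3, 16.2 and 15.4 in Leo1_10, with no overlap. Its log2 change was 1.10 on that scale (adjusted p = 7.53e-06), and 1.45 ± 0.51 on the ERCC scale (adjusted p = 0.0525). PCDHB16 had log2 changes of 0.92 (adjusted p = 1.64e-04) with TMM and 1.23 ± 0.49 (adjusted p = 0.119) on the ERCC scale in 10% serum. PCDHB14, the neighbour in abundance, had −0.07 (adjusted p = 0.587) and 0.27 ± 0.49 (adjusted p = 0.803). PCDHGC3 had 32.9, 33.0 and 33.3 CPM in Leo1_10, below all of WT_10, and 84.2, 73.0 and 48.2 CPM in Leo1_01, below all of WT_01. Its log2 change with TMM was −0.99 (adjusted p = 0.00568) in 10% serum and −1.04 (adjusted p = 0.00540) in 0.1% serum, and on the ERCC scale −0.66 ± 0.48 (adjusted p = 0.549) and −0.96 ± 0.48 (adjusted p = 0.36). PCDHGA7 had 38.3, 38.9 and 39.2 CPM in WT_10 and 17.3, 15.9 and 16.2 in Leo1_10, a TMM log2 change of −1.25 (adjusted p = 1.19e-05) against −0.89 ± 0.49 (adjusted p = 0.379) on the ERCC scale.

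Shares within the cluster do not depend on either scale. Gamma members took 73.3% ± 2.12 (SD, n = 3) of the cluster's counts in WT_10 and 61.6% ± 0.373 in Leo1_10, without overlap. Overlap is given in CPM or in shares here and elsewhere, unless the ERCC scale is named. In 0.1% serum they took 67.4% ± 1.59 in wild-type and 63.2% ± 2.25 in ΔLEO1 cells. These groups did not overlap either, with 65.8% as the lowest wild-type and 65.4% as the highest ΔLEO1 library. Of the gamma counts, PCDHGB5 took 0.661% ± 0.0642 in WT_10 and 16.3% ± 0.327 in Leo1_10. PCDHGA4 took 1.63% ± 0.343 and 8.95% ± 1.61, PCDHGA12 11.9% ± 1.40 and 0.091% ± 0.0548, and PCDHGC3 27.7% ± 0.336 and 19.8% ± 0.572. PCDHGB4 took 24.2% ± 0.771 and 27.1% ± 1.10, and was the most used gamma member of both ΔLEO1 groups. Of the beta counts, PCDHB16 took 24.1% ± 0.207 in WT_10 and 37.8% ± 1.06 in Leo1_10, and 15.8% ± 0.710 in WT_01 and 30.1% ± 0.704 in Leo1_01. Shares are counts not divided by length, so they compare a member between groups and not members with each other.

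**Figure D3:**
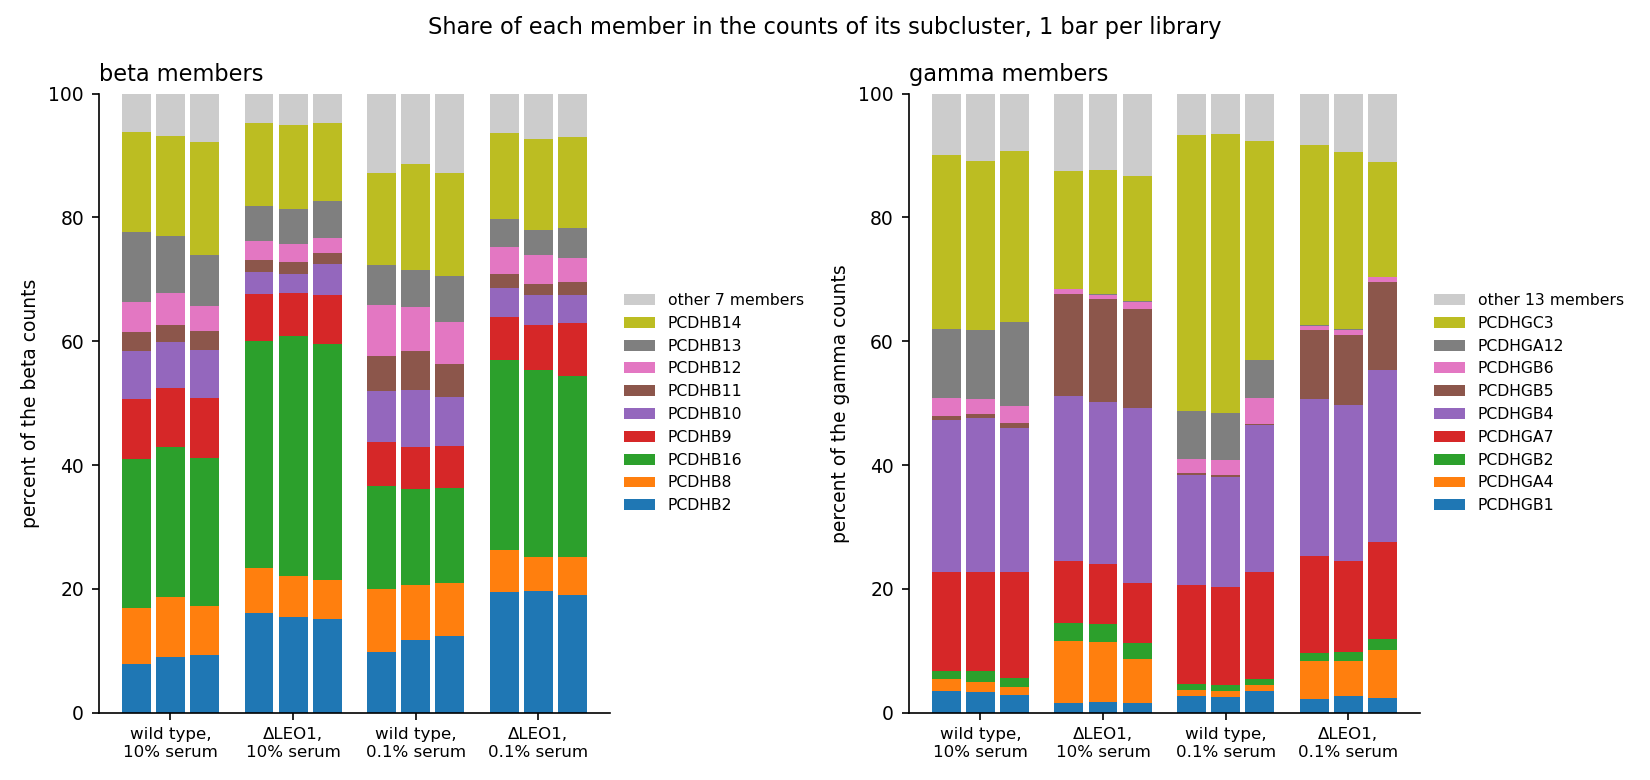
Share of each member in the beta counts (left) and the gamma counts (right), 1 stacked bar per library. In ΔLEO1 libraries PCDHB16 widens among the beta members, and among the gamma members PCDHGB5 and PCDHGA4 appear where PCDHGA12 is lost.

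The evenness of use can be put as an effective number, the number of equally used members that would give the same Shannon entropy. Within gamma it was 7.89 ± 0.184 in WT_10 and 8.81 ± 0.0404 in Leo1_10, and 6.10 ± 0.485 in WT_01 and 7.75 ± 0.561 in Leo1_01. Within beta it went the other way, from 9.50 ± 0.132 to 7.19 ± 0.129 in 10% serum and from 11.2 ± 0.183 to 8.19 ± 0.127 in 0.1% serum. The groups did not overlap in any of these pairs. ΔLEO1 cells thus spread their gamma counts over more members and their beta counts over fewer. The difference in the use of all members between libraries was measured as Bray-Curtis dissimilarity, which is 0 for equal shares and 1 for no member in common. Between genotypes it averaged 0.309 (0.278 to 0.337 over 9 pairs of libraries) in 10% serum and 0.282 (0.220 to 0.351) in 0.1% serum. Between sera it averaged 0.164 (0.131 to 0.189) in wild-type and 0.122 (0.0871 to 0.142) in ΔLEO1 cells. Within groups it averaged 0.0357 to 0.0730, so the pairs between genotypes lay further apart than any pair between sera, and those further apart on average than replicates.

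Low serum changed the amount of cluster RNA in a way that depended on the scale. In CPM, the summed gamma level was 239, 243 and 229 in WT_10 and 397, 355 and 267 in WT_01, and 172, 165 and 166 in Leo1_10 against 289, 256 and 261 in Leo1_01. The summed beta level was 93.2, 93.2 and 73.3 CPM in WT_10 and 178, 171 and 138 in WT_01. Both were higher in CPM without overlap, with log2 ratios of 0.50 ± 0.30 (SD) for gamma and 0.91 ± 0.28 for beta in wild-type cells. In ΔLEO1 cells they were 0.68 ± 0.10 and 0.58 ± 0.10. On the ERCC scale the same ratios were −0.54 ± 0.76 and −0.13 ± 0.82 in wild-type cells, and −0.58 ± 0.89 and −0.67 ± 0.95 in ΔLEO1 cells, all within the spread between libraries. The ERCC size of a library varied widely within Leo1_01, as ERCC counts made up 1.88%, 3.24% and 1.09% of libraries 10, 11 and 12.

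**Figure D4:**
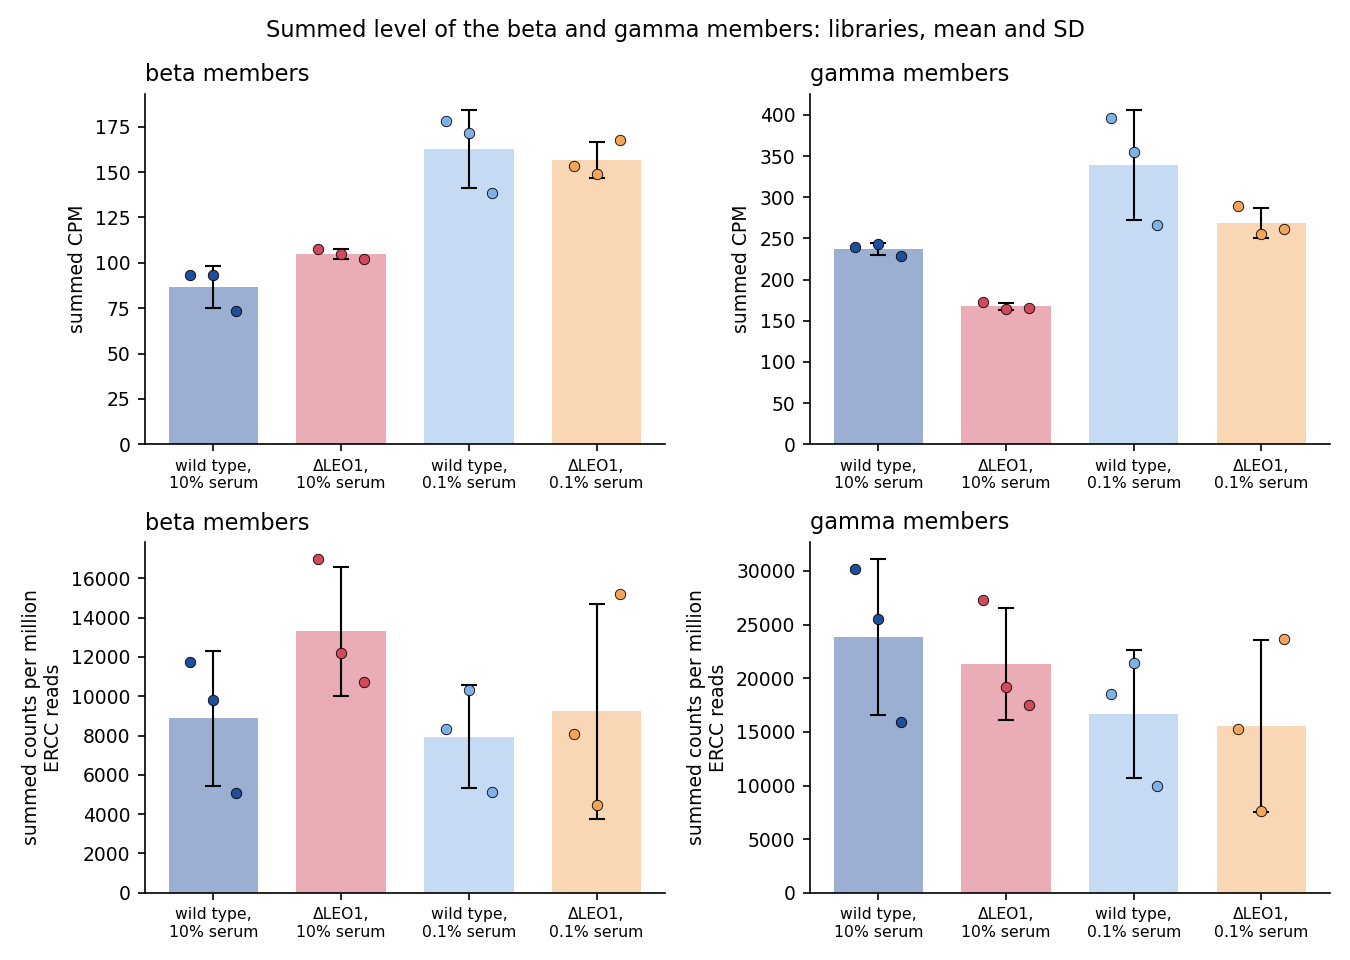
Summed level of the beta and gamma members in each group, in CPM (top) and relative to ERCC reads (bottom), with points for libraries, bars for the mean and error bars for the SD. In CPM all libraries in 0.1% serum lie above those of the same genotype in 10% serum, and on the ERCC scale the groups overlap.

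Single members followed the same split. On the ERCC scale, no member was called higher in 0.1% serum in wild-type cells (0.831% of all genes tested), where edgeR's quasi-likelihood test had 2 at an unadjusted p under 0.05, the likelihood ratio test called 0 and DESeq2 1. In ΔLEO1 cells 0 were called higher (0.793% of all genes tested), with 0 at an unadjusted p under 0.05 and 0 by either other test. Lower were 5 members in wild-type (27.0% of all genes tested) and 3 in ΔLEO1 cells (36.4% of all genes tested), all gamma genes. With TMM on the genes, 13 members were higher (15.5% of all genes) and 4 lower (16.1%) in wild-type cells, and 15 were higher (15.5%) and 0 lower (12.1%) in ΔLEO1 cells. Without libraries 3, 6, 9 and 12 the ERCC scale gave 3 higher and 13 lower in wild-type cells, beside 158 and 8347 of all 13236 genes tested. In ΔLEO1 cells it gave 0 higher and 21 lower, beside 90 and 12088 of all genes. With a term for these libraries, 0 were higher and 3 lower in wild-type cells (94 and 2591 of all genes). In ΔLEO1 cells 0 were called either way (86 and 2082 of all genes). The median log2 change of the members was −0.70 in wild-type and −0.48 in ΔLEO1 cells on the ERCC scale, and 0.30 and 0.55 with TMM.

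PCDHGB7 was called lower in low serum in wild-type cells on both scales. It exceeded 1 CPM only in WT_10 libraries, so it passed the filter only through the group where it was high. It had 54, 70 and 47 counts in WT_10 and 12, 9 and 17 in WT_01, without overlap. The log2 change was −3.01 ± 0.62 (adjusted p = 6.40e-05) on the ERCC scale and −1.95 (adjusted p = 5.44e-04) with TMM. PCDHGA2 went from 2.41, 2.48 and 1.94 to 1.34, 1.37 and 1.31 CPM, with a log2 change of −1.85 ± 0.57 (adjusted p = 0.0113), lost without library 1, 2, 7 or 9 (adjusted p 0.0645 to 0.096). PCDHGB5 in wild-type cells had a log2 change of −1.55 ± 0.54 (adjusted p = 0.0238), lost without library 1, 2, 7 or 9 (adjusted p 0.0909 to 0.20), and the libraries did not overlap. PCDHGA4 (−1.36, adjusted p = 0.0405) and PCDHGA6 (−1.42, adjusted p = 0.0387) made up the 5, and each lost its call without any of several libraries. Both overlapped between the sera in CPM, and with TMM PCDHGA4 was not called (−0.35, adjusted p = 0.259) and PCDHGA6 was (−0.47, adjusted p = 0.0462). In ΔLEO1 cells PCDHGA10 (−1.44, adjusted p = 0.0401), PCDHGA5 (−1.38, adjusted p = 0.0408) and PCDHGB2 (−1.33, adjusted p = 0.0429) were called lower on the ERCC scale. Their libraries overlapped in CPM for PCDHGA10 and PCDHGB2, none of the 3 was called with TMM, and each lost its call without library 4, 5, 10 or 11, among others.

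Several beta members of low level were higher in low serum in CPM. Of these, PCDHB5 exceeded 1 CPM only in WT_01 libraries, and PCDHB6 only in those and library 12. Both thus passed the filter through WT_01, the group where they were high. PCDHB5 went from 0.713, 0.510 and 0.382 CPM in WT_10 to 3.27, 2.67 and 2.54 CPM in WT_01, and PCDHB6 from 0.548, 0.664 and 0.714 to 2.82, 3.32 and 3.37 CPM. Neither overlapped between the sera. Their log2 changes with TMM were 2.31 (adjusted p = 2.66e-04) and 2.21 (adjusted p = 5.2e-05), and on the ERCC scale 1.29 ± 0.58 (adjusted p = 0.0701) and 1.28 ± 0.58 (adjusted p = 0.0687). PCDHGC3 had log2 changes of 1.04 (adjusted p = 0.00617) with TMM and 0.11 ± 0.48 (adjusted p = 0.833) on the ERCC scale in wild-type cells.

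Whether the response to serum differed between genotypes was tested as an interaction. On the ERCC scale, edgeR's quasi-likelihood test called 0 of 30 members higher (0.113% of all genes tested) or lower (0.0604% of all genes tested), with 1 at an unadjusted p under 0.05, and the likelihood ratio test and DESeq2 called 0. That member was PCDHGB7, at 1.80 ± 0.86, which passed the filter through WT_10 alone. With TMM on the genes 3 members were called higher (1.55% of all genes) and 2 lower (0.453%). These were PCDHGB1 (0.93 ± 0.19, adjusted p = 0.0312), PCDHGA2 (1.16 ± 0.25, adjusted p = 0.0381) and PCDHGA7 (0.85 ± 0.17, adjusted p = 0.0273), and PCDHGA5 (−1.23 ± 0.23, adjusted p = 0.0219) and PCDHB11 (−1.07 ± 0.24, adjusted p = 0.0482). PCDHGA7 shows the pattern in CPM, as ΔLEO1 cells had 15.9 to 17.3 CPM in 10% serum and 37.8 to 45.5 in 0.1% serum, while wild-type cells had 38.3 to 39.2 and 46.0 to 63.9. PCDHGA5 went from 2.07 to 2.78 CPM in WT_10 to 4.23 to 5.35 in WT_01, and from 2.74 to 2.97 in Leo1_10 to 2.31 to 2.52 in Leo1_01.

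Non-member genes inside the cluster and on its flanks were examined by position. Beside their counts stand the shares over all genes tested. On the ERCC scale 3.81% were higher and 4.2% lower in 10% serum, and 3.49% and 3.41% in 0.1% serum. With TMM the shares were 17.9% and 21.4% in 10% serum and 15.1% and 17.3% in 0.1% serum. Inside it, 4 of 31 were tested, and 2 pseudogenes were higher in ΔLEO1 cells in both sera. PCDHB18P had 25 to 32 counts in WT_10, 153 to 197 in Leo1_10, 21 to 48 in WT_01 and 251 to 334 in Leo1_01 (log2 change 2.73 ± 0.58, adjusted p = 6.84e-05, and 3.10 ± 0.58, adjusted p = 4.61e-06). PCDHB19P had 9 to 13, 35 to 42, 7 to 10 and 47 to 113 counts in the same order (1.99 ± 0.62, adjusted p = 0.0192, and 3.42 ± 0.64, adjusted p = 4.61e-06). PCDHB19P stayed under 1 CPM in every wild-type library and PCDHB18P in every WT_10 library. Both pseudogenes passed the filter only with ΔLEO1 libraries, where they were high. Within 1 Mb to the left, 19 of 44 genes were tested, of which HBEGF, a growth factor, and MALINC1 were higher in both sera on the ERCC scale and 0 lower, also by the likelihood ratio test, DESeq2 and at an unadjusted p under 0.05. Their log2 changes in 10% serum were 2.47 ± 0.56 (adjusted p = 3.15e-04) and 2.06 ± 0.58 (adjusted p = 0.00686). To the right, 11 of 24 were tested, with 0 called in 10% serum (2 at an unadjusted p under 0.05, and 0 by the likelihood ratio test or DESeq2) and PCDH1 higher in 0.1% serum (1.94 ± 0.59, adjusted p = 0.0171). With TMM, 5 were higher and 3 lower on the left in 10% serum and 4 higher and 2 lower in 0.1% serum, and 3 were higher and 2 lower on the right in each serum. The median log2 change of the flanking genes was 0.54 on each side in 10% serum, and 0.27 and 0.30 in 0.1% serum, beside 0.35 and 0.27 for all genes.

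Other genes of the pathway were taken from lists. Of all genes tested, 3.81% were higher and 4.2% lower in ΔLEO1 cells in 10% serum on the ERCC scale. In 0.1% serum 3.49% were higher and 3.41% lower. With TMM these shares were 17.9% and 21.4% in 10% serum and 15.1% and 17.3% in 0.1% serum. Of 25 regulators of the cluster's promoters and chromatin, such as CTCF, the cohesin subunits, SMCHD1, SETDB1 and the DNA methyltransferases, 0 were called in ΔLEO1 against wild-type cells in either serum by edgeR's quasi-likelihood test, 0 had an unadjusted p under 0.05, and the likelihood ratio test and DESeq2 called 0. With TMM, 4 were higher and 3 lower in 10% serum, and 3 higher and 5 lower in 0.1% serum. Their summed level was 1630 to 1858 CPM in WT_10 and 1828 to 1969 in Leo1_10. In low serum 6 of the 25 were lower in wild-type cells (27.0% of all genes tested) and 4 in ΔLEO1 cells (36.4% of all genes tested) on the ERCC scale, where the likelihood ratio test called 6 and 12 and DESeq2 6 and 10. None was higher in either by these tests or at an unadjusted p under 0.05. With TMM, 5 were higher (15.5% of all genes) and 1 lower (16.1%) in wild-type and 4 higher (15.5%) and 3 lower (12.1%) in ΔLEO1 cells. Of 22 binding partners and processing enzymes, such as the WAVE complex, ADAM10 and the presenilins, 21 were tested and 0 called in either serum. In 10% serum 2 of them had an unadjusted p under 0.05, the likelihood ratio test called 0 and DESeq2 called 1. In 0.1% serum 0 did and both tests called 0. With TMM they were 3 higher and 3 lower in 10% serum and 3 higher and 2 lower in 0.1% serum. Of 19 protocadherins and large cadherins encoded elsewhere, 9 were tested, 3 were higher in ΔLEO1 cells in 10% serum and 4 in 0.1% serum on the ERCC scale, and edgeR's quasi-likelihood test called 0 lower in either. In each serum 1 was lower at an unadjusted p under 0.05 and by DESeq2, and 0 by the likelihood ratio test. With TMM, 5 were higher and 3 lower in 10% serum and 4 higher and 2 lower in 0.1% serum, with DCHS1 lower in both (−1.56, adjusted p = 3.00e-04, and −1.37, adjusted p = 9.45e-04). PCDH9 had 0 or 1 counts in all wild-type libraries, 536 to 592 in Leo1_10 and 296 to 442 in Leo1_01. PCDH7 had 0 to 4 counts in wild-type libraries, 150 to 189 in Leo1_10 and 144 to 198 in Leo1_01. FAT3 had 0 to 8, 289 to 373 and 107 to 196. Adjusted p was 4.14e-27, 2.27e-16 and 6.81e-16 for PCDH9, PCDH7 and FAT3 in 10% serum. These genes stayed under 1 CPM in every wild-type library, so they passed the filter through ΔLEO1 libraries alone, where they were high.

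Marker genes of fibroblasts were present in all libraries, and marker lists of other cell types also differed between genotypes. The 15 fibroblast markers summed to 76930 to 104600 CPM in WT_10, 88900 to 102800 in Leo1_10, 96600 to 120200 in WT_01 and 80210 to 108500 in Leo1_01. In 10% serum POSTN was higher (5.29 ± 0.54) and COL6A1 (−1.63 ± 0.45) and COL6A2 (−1.65 ± 0.45) were lower, and in 0.1% serum POSTN was higher (3.11 ± 0.49) on the ERCC scale, where 0 were called lower by edgeR's quasi-likelihood and likelihood ratio tests, 1 by DESeq2 and 2 at an unadjusted p under 0.05. With TMM, 2 were higher and 5 lower in 10% serum and 2 higher and 6 lower in 0.1% serum. For both scales, the shares over all genes tested are those given above for the lists. Of 12 neuron markers, 4 were tested, and SNAP25, ELAVL4 and NEFM had no count. They summed to 22.8 to 28.4 CPM in WT_10, 18.1 to 19.4 in Leo1_10, 25.0 to 26.3 in WT_01 and 13.8 to 16.8 in Leo1_01. TUBB3 was higher and STMN2 and GAP43 lower in both sera. Of 7 epithelial markers, 2 were tested, and they summed to 319 to 463 CPM in WT_10, 841 to 1141 in Leo1_10, 167 to 182 in WT_01 and 509.6 to 585 in Leo1_01. KRT18 was higher in both sera (1.95 ± 0.47 and 2.67 ± 0.48). Its partner KRT8 had log2 changes of −0.87 ± 0.48 (adjusted p = 0.388) and −0.996 ± 0.48 (adjusted p = 0.332) on the ERCC scale and was lower with TMM (−1.23, adjusted p = 1.84e-04, and −1.10, adjusted p = 5.39e-04). The 6 endothelial markers, 1 of them tested, summed to 2.02 to 3.62 CPM in WT_10, 0.419 to 0.645 in Leo1_10, 2.67 to 5.55 in WT_01 and 0.40 to 0.595 in Leo1_01. The 6 blood cell markers, 2 of them tested, summed to 0.995 to 1.70, 2.75 to 7.24, 1.28 to 1.67 and 6.20 to 8.24 CPM in the same order. TEK was lower (−4.63 ± 0.71 and −6.75 ± 0.87) and PTPRC was higher (4.30 ± 0.63 and 4.15 ± 0.63) in ΔLEO1 cells in both sera. TEK passed the filter through wild-type libraries alone, and PTPRC only with ΔLEO1 libraries, so each passed through the genotype where it was high. The part of these differences in the choice of protocadherin members was not tested.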

How the data were processed

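Poly(A) RNA with ERCC transcripts was measured in 12 libraries, 3 per group. The authors aligned reads with STAR (2.7.10a in the submitters' processing notes) to GRCh38 and deposited raw counts per gene and per ERCC transcript from featureCounts 1.5.1. The library kit keeps strand, and the strand setting, the treatment of reads in shared exons and the annotation release are not given in the sources used here. Gene names were looked up by identifier, and positions were read from GENCODE. A gene was tested where at least 3 libraries exceeded 1 CPM, which left 13236 genes in a single fit of 4 groups in edgeR 4.0.16 (R 4.3.3) with the quasi-likelihood test, two-sided. The effective library size was the ERCC total times its TMM factor, and a call needed a p below 0.05 after Benjamini-Hochberg adjustment over all genes. The SE of a log2 change was not fitted. It was computed as the absolute log2 change divided by the square root of the F statistic of the test.

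The 4 pairwise comparisons and the interaction were tested. Values per library were given for the 3 members with the highest mean CPM in each subcluster, the C-types, and, per comparison, up to 3 called members in each direction with the largest change, no overlap between groups and 1 CPM or more on average in either group. For this choice, overlap was judged on the ERCC scale. List genes were named for up to 3 called genes per list and genotype comparison. Alternatives were the likelihood ratio test, DESeq2 1.42.0 with ERCC size factors, TMM or DESeq2 size factors on the genes, ERCC totals alone, no filter, filterByExpr, only the 6 libraries compared, a threshold of 0.01, each library left out, libraries 3, 6, 9 and 12 left out or, added after seeing the data, given a term of their own, and the lowest-numbered pairs summed. Shares were also computed per kilobase and from members with 10 counts in 3 libraries. The procedure was tested on simulated data. The members and lists were chosen with earlier results of these data known.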

Additional observations from a re-analysis of the deposited data

How the results depend on the processing

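No paired analysis was possible because the labels number the libraries through, so that no number is shared by libraries of 2 groups. A term in the fit for libraries 3, 6, 9 and 12, equal in all groups and chosen after seeing the data, gave 7 called members in 10% serum, 7 in 0.1% serum (PCDHB7 lost, adjusted p = 0.0529), 3 for low serum in wild-type cells (PCDHGA4, adjusted p = 0.0596, and PCDHGA6, adjusted p = 0.0539, lost), 0 in ΔLEO1 cells (adjusted p 0.0664 to 0.0755 for the 3 lost) and 0 for the interaction. PCDHGB5 and PCDHGA12 kept their direction and their call in both genotype comparisons under every alternative. The number of called members moved with the scale and the libraries. For ΔLEO1 against wild type in 10% serum it was 7, and 18 with TMM or DESeq2 size factors on the genes, 11 with only the 6 libraries compared, 11 without libraries 3, 6, 9 and 12, 2 with the lowest-numbered pairs summed, and 5 to 11 with a library left out, highest without library 12. In 0.1% serum it was 8, and 23 with either scaling on the genes, 16 without the 4 libraries, 4 with pairs summed and 6 to 12 with a library left out. For low serum in wild-type cells it was 5, and 17 with either scaling on the genes, 8 with DESeq2 on the ERCC scale, 2 without a filter, 14 with only the 6 libraries, 16 without the 4 libraries, 1 with pairs summed, 1 at a threshold of 0.01 and 1 to 14 with a library left out, highest without library 12. In ΔLEO1 cells it was 3, and 15 with either scaling on the genes, 0 without a filter, 0 with only the 6 libraries, 21 without the 4 libraries, 0 with pairs summed, 0 at 0.01 and 0 to 18 with a library left out, highest without library 12. Counts over all 13236 genes moved as well, so these moves are not particular to the members. For ΔLEO1 against wild type in 10% serum, 504 were higher and 556 lower. With pairs summed these were 211 and 282, and with TMM 2371 and 2834. In 0.1% serum 462 were higher and 452 lower, beside 246 and 190 with pairs summed and 2004 and 2289 with TMM. Low serum lowered 3578 genes in wild-type and 4820 in ΔLEO1 cells, and 335 and 118 with pairs summed. For low serum in ΔLEO1 cells 11565 genes were lower without library 12, and 544 with only the 6 libraries. In wild-type cells 8107 and 7508 were lower in the same settings. For ΔLEO1 against wild type, 964 were higher and 784 lower in 10% serum without library 12. In 0.1% serum 1141 were higher and 384 lower without library 11. The interaction gave 0, 5 with either scaling on the genes, and 0 with any library left out. The cause of these differences was not tested. Per kilobase of unshared exon, gamma members took 77.9%, 67.7%, 71.7% and 68.8% of the counts in WT_10, Leo1_10, WT_01 and Leo1_01, against 73.3%, 61.6%, 67.4% and 63.2% by counts. The effective number of members over the whole cluster was 14.9, 15.9, 14.0 and 15.3 by counts and 13.4, 14.6, 13.1 and 14.1 per kilobase in the same order. Without filtering, PCDHGA9 (3.66, adjusted p = 1.8e-05) and PCDHGA11 (2.40, adjusted p = 0.00668) were called higher in ΔLEO1 cells in 10% serum and PCDHA7 lower. With a library left out, gamma shares ran from 72.1% to 74.0%, 61.4% to 61.7%, 66.6% to 68.2% and 62.0% to 64.3% in the 4 groups. In CPM in place of the ERCC scale, the log2 ratios of 0.1% against 10% serum were 0.91 and 0.58 for beta and 0.50 and 0.68 for gamma members in wild-type and ΔLEO1 cells.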
